A study of Homo sapiens with 6 samples.

Results

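The 45 genes described here encode proteins of the cornified envelope and of squamous differentiation. They were taken by name, as every probe that the array's own annotation assigns to one of these symbols, which gave 53 of the 50599 probes and 45 of the 36337 gene names on the array. The rule itself uses no measured value. FLG and DMKN have 3 probes each, SPRR1A, SPRR2A, SPRR2D, and LCE1C have 2 each, and the other 39 genes have 1. Where a gene has several probes, the one of the highest mean signal stands for it.

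Expression was measured in HSC-3, KON, and Ca9-22 cells, established lines of oral squamous cell carcinoma (OSCC). Each line was transfected with siDLEU1-2, a small interfering RNA against the long noncoding RNA DLEU1, or with a control siRNA (siCtrl), and RNA was collected 72 h later. Cy3-labeled cRNA made from 100 ng of total RNA was hybridized to one-color Agilent arrays, with 1 array for each line and siRNA, so 6 arrays in all. The 3 lines therefore serve as the replicates of the comparison between the siRNAs, and no error can be given for a single line. All cells in both groups went through transfection, no array of untransfected cells was used here, and the array experiment used 1 siRNA sequence against DLEU1.

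Stratified squamous epithelium renews itself from a basal layer, and cells that leave this layer build an insoluble protein shell, the cornified envelope, beneath their plasma membrane. Scaffold proteins such as involucrin, envoplakin, and periplakin are laid down first, transglutaminases then cross-link them with small proline-rich proteins, loricrin, and late cornified envelope proteins, and lipids are attached to the outside. Many of the structural genes lie side by side on chromosome 1 in the epidermal differentiation complex. Normal lining mucosa of the mouth keeps a nonkeratinized version of this program, with cornulin, MAL, and small proline-rich proteins among its products. Keratinocytes in culture express the early genes more readily than the late ones.

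Levels are given as the log2 of the background-subtracted signal relative to the 75th percentile of the same array, so that 0 is the 75th percentile. These levels can be compared between arrays for 1 probe, not between probes. Differences are log2 fold changes, siDLEU1-2 over siCtrl within a line, and a probe is called detected where the scanner software marked its signal as well above background. In RNA from whole cultures, a lower level can mean fewer expressing cells or less RNA in each cell, and these cannot be told apart.

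The arrays themselves were alike. Between 43.0% and 45.7% of the probes were detected on an array, and the 75th percentile of the signal lay between 200.5 and 256.8. DLEU1, the target of the siRNA (hg19, chr13:50679272-50679331), fell by 4.10 in HSC-3 cells, by 3.63 in KON cells, and by 3.44 in Ca9-22 cells (mean −3.72 ± 0.34, SD, n = 3 lines; limma adjusted p = 0.0227). Of 8 epithelial markers, all were detected, 7 of them on all 6 arrays, including KRT5, KRT14, CDH1, and EPCAM. Among fibroblast markers, COL1A2, COL3A1, LUM, and PDGFRB were not detected on any array, nor were the leukocyte marker PTPRC and the endothelial marker KDR. The other markers were detected on at least 1 array, which was 2 of 6 fibroblast, 4 of 5 leukocyte, and 5 of 6 endothelial markers. Among these, VWF and CDH5 were detected on 5 arrays each. The summed level of the 6 fibroblast markers lay between −0.42 and −0.16 after siCtrl and between 0.79 and 1.55 after siDLEU1-2. This came through COL1A1, which rose by 1.45 ± 0.57 (limma adjusted p = 0.0423). The ranges after siCtrl and after siDLEU1-2 were 0.06 to 5.68 and 0.23 to 6.04 for the 5 leukocyte markers. For the 6 endothelial markers they were −1.77 to −0.22 and −0.96 to 0.79. Such ranges ignore the pairing of arrays by line. The 2 endothelial markers tested were VWF and CDH5. Within HSC-3, KON, and Ca9-22, VWF differed by −0.39, 1.61, and 1.59 and CDH5 by 2.08, 0.98, and 0.39 (limma adjusted p = 0.252 and 0.113). Of the leukocyte markers, CD14 was at 5.58 and 6.01 in HSC-3 after siCtrl and siDLEU1-2, and CD68 fell by 1.39 ± 0.30 (limma adjusted p = 0.0278), over 2-fold in every line. The part of these markers in the results below was not tested.

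The siRNA is shown because short matches to its seed can lower the signal of other transcripts. The guide (antisense) strand of siDLEU1-2, with bases 2 to 8 in capitals as the seed, is:
siDLEU1-2 antisense: uUAAGUGCgauaaccccugua
The 7 bases that pair with this seed, GCACTTA, were in the 60-base sequence of 0 of the 53 probes for these genes and in 138 of all 50599 probes (0.273%). A probe covers only a small stretch of its transcript, so the rest of each transcript was not searched.

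The genes also shared letters in their promoters that the choice of genes did not use. RefSeq promoter sequence (GRCh38.p14) was at hand for 34 of the 45 genes. In the 250 bases before the start of transcription, TGANTCA, the motif of the transcription factor AP-1, was found on either strand in 15 of these 34 genes (44.1%), against 6.60% of 27305 RefSeq promoters of the same length. The AP-1 matches were upstream of IVL, LOR, SCEL, SPRR1A, SPRR1B, SPRR2A, SPRR2F, SPRR2G, SPRR3, FLG, RPTN, CRNN, SBSN, KRTDAP, and EMP1. TATAAA, the core of the TATA box, was found on the coding strand in 16 of the 34 genes (47.1%), against 7.17% of all promoters. AACCGGTT, a motif bound by Grainyhead-like factors, was found in 0 of the 34 and in 0.106% of all. AP-1 and TATA matches do not overlap in the sequences printed here. A match is a description of the letters only, and neighboring members of a gene family share ancestry, so they are not independent. PPL, EVPL, SPRR2D, SPRR2E, CRCT1, TGM1, CSTA, CST6, PI3, SLPI, and RHCG were not searched.

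The 6 stretches below belong to genes that the results turn on, and are written 5′ to 3′ on the strand of the gene, with AP-1 and TATA matches in capitals:
SCEL, chr13:77535456-77535705, plus strand: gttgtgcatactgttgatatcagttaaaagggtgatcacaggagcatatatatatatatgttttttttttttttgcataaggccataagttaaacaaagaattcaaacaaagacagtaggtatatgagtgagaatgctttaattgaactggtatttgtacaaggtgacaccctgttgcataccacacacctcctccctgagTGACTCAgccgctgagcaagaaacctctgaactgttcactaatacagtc
EMP1, chr12:13196476-13196725, plus strand: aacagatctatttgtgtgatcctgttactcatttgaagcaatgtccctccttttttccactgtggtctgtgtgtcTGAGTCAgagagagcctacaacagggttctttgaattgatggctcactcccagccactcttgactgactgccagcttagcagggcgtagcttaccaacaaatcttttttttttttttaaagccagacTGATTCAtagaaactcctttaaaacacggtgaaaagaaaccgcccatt
IVL, chr1:152908296-152908545, plus strand: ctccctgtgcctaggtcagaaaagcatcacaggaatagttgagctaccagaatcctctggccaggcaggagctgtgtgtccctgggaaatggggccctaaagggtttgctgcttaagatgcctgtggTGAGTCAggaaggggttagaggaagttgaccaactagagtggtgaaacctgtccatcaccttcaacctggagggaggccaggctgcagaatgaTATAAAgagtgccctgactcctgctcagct
FLG, chr1:152325240-152325489, minus strand: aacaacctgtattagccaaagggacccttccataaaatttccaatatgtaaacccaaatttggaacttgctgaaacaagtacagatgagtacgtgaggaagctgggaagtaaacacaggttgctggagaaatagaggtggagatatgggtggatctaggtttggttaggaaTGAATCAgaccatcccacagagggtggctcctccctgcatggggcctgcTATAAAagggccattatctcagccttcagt
CRNN, chr1:152414264-152414513, minus strand: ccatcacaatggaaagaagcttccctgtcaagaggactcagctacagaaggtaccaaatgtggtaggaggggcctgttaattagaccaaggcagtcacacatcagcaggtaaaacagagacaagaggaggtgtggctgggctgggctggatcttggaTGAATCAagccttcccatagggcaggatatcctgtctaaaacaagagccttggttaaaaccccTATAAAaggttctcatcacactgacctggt
MAL, chr2:95025458-95025707, plus strand: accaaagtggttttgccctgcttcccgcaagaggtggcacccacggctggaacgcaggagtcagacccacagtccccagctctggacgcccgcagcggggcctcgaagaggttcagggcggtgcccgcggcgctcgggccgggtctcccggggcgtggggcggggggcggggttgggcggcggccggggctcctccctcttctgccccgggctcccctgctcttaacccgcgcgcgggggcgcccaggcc
SCEL has 1 AP-1 match and EMP1 has 2, both without a TATAAA. IVL, FLG, and CRNN have 1 AP-1 match each and a TATAAA whose first base lies 30 bases before the start. The stretch before MAL holds neither.

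For 16 genes, no probe was detected on any of the 6 arrays, and for 29 genes at least 1 probe was detected on at least 1 array. By probe, 17 of 53 (32.1%) were undetected throughout, against 44.6% of all probes, and 18 (34.0%) were detected on all 6 arrays, against 35.8% of all. The undetected genes were loricrin (LOR), SPRR2B, SPRR2G, SPRR4, LCE3D, hornerin (HRNR), repetin (RPTN), CRCT1, the transglutaminases TGM3 and TGM5, the protease inhibitor A2ML1, the proteases TMPRSS11D and TMPRSS11E, the lipoxygenase ALOX12B, corneodesmosin (CDSN), and the ammonium transporter RHCG. Among these, loricrin lay between −5.90 and −4.54, where an array's lowest detected signal was between −3.85 and −3.29. For 16 genes a probe was detected on all 6 arrays: ABCA12, CNFN, CST6, CSTA, DMKN, EMP1, EVPL, LCE1C, PPL, SCEL, SLPI, SPRR1A, SPRR2D, SPRR2E, SPRR2F, and TGM1. Of the 20 genes in the epidermal differentiation complex (chr1:152126790-153234496 on hg19, from the first to the last probe), 12 were detected on some array and 5 on all 6. LCE1C is 1 of these 5 through a probe that matches probes for LCE1A and LCE1D in up to 40 of 60 bases. Its other probe was detected on 1 array. Of the 25 genes elsewhere, 17 were detected on some array and 11 on all 6. Of all probes on the array, 55.4% were detected on some array and 35.8% on all 6.

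**Figure D1:**
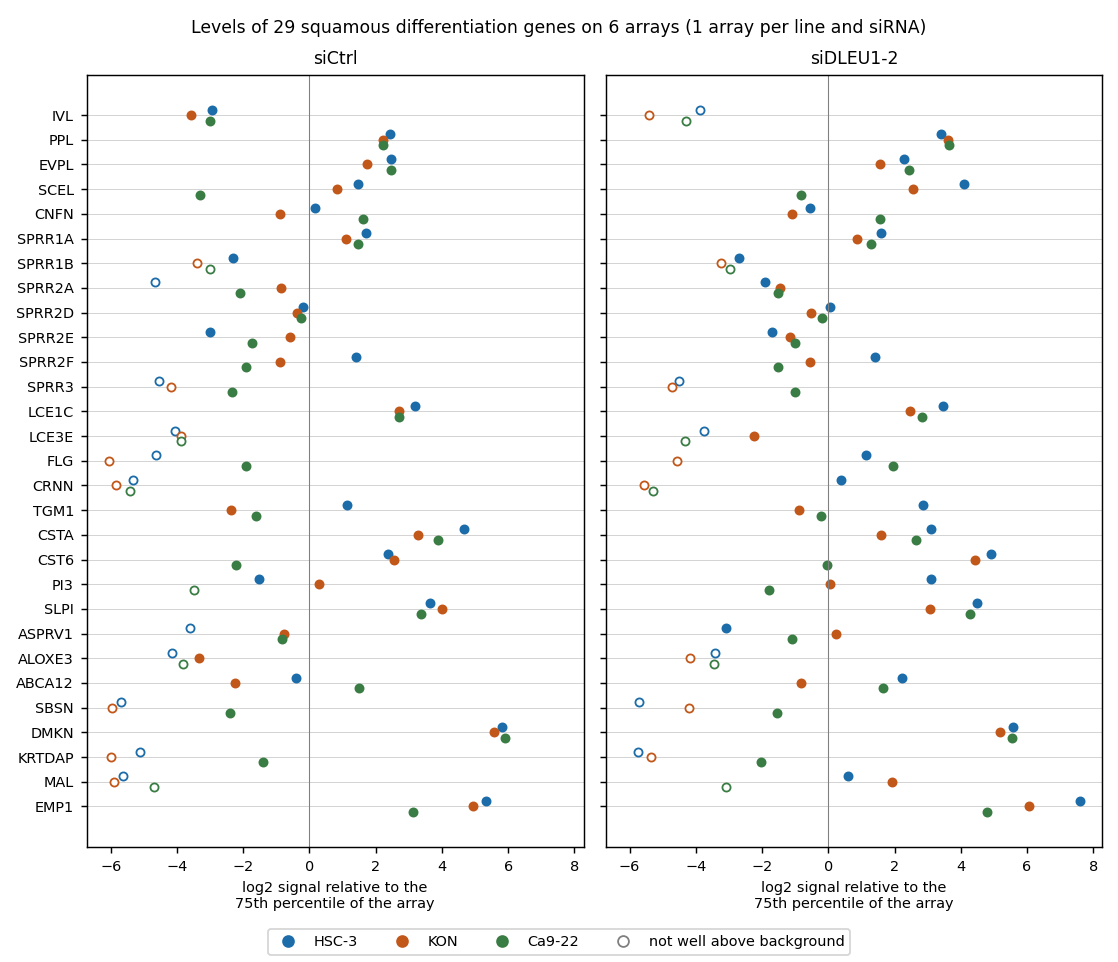
Level of the 29 genes detected on at least 1 array, on the siCtrl arrays (left) and the siDLEU1-2 arrays (right), as log2 signal relative to the array's 75th percentile. Each point is 1 array, colored by cell line, and open points were not well above background; rows can be compared across panels and lines, not with each other. SPRR3, SBSN, and KRTDAP have filled points in Ca9-22 only, and IVL has filled points on the left only.

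The comparison of siDLEU1-2 with siCtrl asks which of these genes changed with DLEU1 knockdown in OSCC cells. limma was fitted to the 19956 probes that were detected in every line, on 1 array or both, with the line as a block and Benjamini-Hochberg adjustment over all of them. This filter kept 23 probes of 20 of the 45 genes. Detected genes that did not pass it were ALOXE3, CRNN, FLG, KRTDAP, LCE3E, MAL, SBSN, SPRR1B, and SPRR3, each undetected on both arrays of some line.

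Of the 20 genes tested, 5 rose, namely TGM1, SCEL, PPL, CST6, and EMP1, against 3.98% of all probes tested that were called higher. CSTA fell, and IVL was called lower, against 4.52% of all probes called lower. IVL passed the filter only through its siCtrl arrays, so its place in this count is tied to the direction tested. The call for IVL was lost under normexp and with undetected values raised to the detection floor. TGM1, SCEL, CST6, and EMP1 were over 2-fold higher in all 3 lines, as were 2.08% of all probes tested, and CSTA was over 2-fold lower in all 3, as were also 2.08% of all. Under normexp, TGM1 was no longer over 2-fold in KON (0.83) or Ca9-22 (0.93), which left 3 genes higher in all 3 lines. Without any single line, without the line as a block, or without the filter on dim probes, limma called 0 probes of these genes, while the 7 genes kept their direction. Calls over the whole array were also 0 in these fits, except without Ca9-22, where 127 probes were called higher and 117 lower. With a line left out, 9 to 11 of the 23 probes had an unadjusted p below 0.05, against 22.0% to 23.4% of all probes.

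The genes did not move together as a set. Among the 23 probes kept, 8 were higher in all 3 lines and 8 were lower in all 3 (34.8% each), against 26.9% and 26.7% of all probes kept. Their median difference was 0.27, against 0.0073 over all probes kept. By line, the median was 0.28 in HSC-3 cells, −0.19 in KON cells, and 0.15 in Ca9-22 cells, against −0.0016, 0.018, and −0.0083 over all probes kept. Without HSC-3, the median over the 23 probes was −0.0005. Of the 7 genes of the epidermal differentiation complex that were tested, 0 were called higher and 1, IVL, was called lower, a call that was lost under normexp and with raised values. IVL entered the test only through its siCtrl arrays, so this call is no support for a fall in the complex. Of the 13 genes elsewhere, 5 rose and 1 fell.

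**Figure D2:**
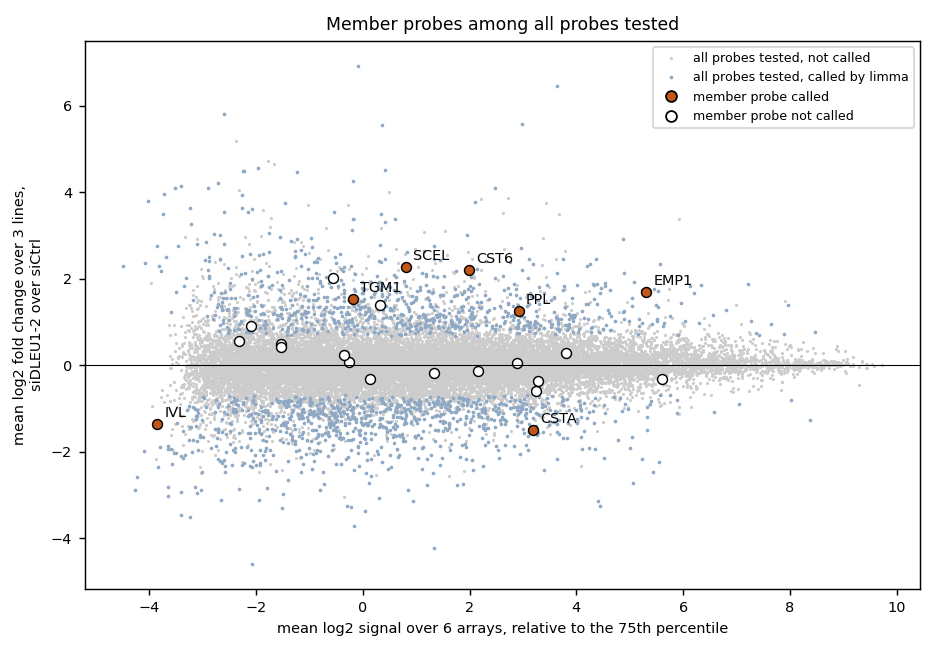
Mean log2 fold change over the 3 lines (siDLEU1-2 over siCtrl) against mean log2 signal over the 6 arrays, for the 19956 probes tested. Blue dots are probes called by limma and large circles are the 23 probes of these genes, filled where called; the 7 filled circles are labeled, and open circles lie on both sides of 0.

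The envelope scaffold genes split. PPL encodes periplakin, which links the envelope to the cytoskeleton, and its probe lies at chr16:4933068-4933127 (hg19). After siCtrl and siDLEU1-2, PPL was at 2.43 and 3.39 in HSC-3 cells, at 2.21 and 3.62 in KON cells, and at 2.23 and 3.63 in Ca9-22 cells. The 3 siCtrl arrays all lay below the 3 siDLEU1-2 arrays, and PPL rose by 1.26 ± 0.25 (SD, n = 3; limma adjusted p = 0.0295), which is 1.95-fold in HSC-3 cells, 2.65-fold in KON cells, and 2.64-fold in Ca9-22 cells.

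SCEL encodes sciellin, a precursor of the envelope (probe at chr13:78218564-78218623). It went from 1.47 to 4.09 in HSC-3, from 0.83 to 2.55 in KON, and from −3.31 to −0.82 in Ca9-22. Each line was higher after siDLEU1-2, while Ca9-22 after knockdown remained below the other lines before it. SCEL rose by 2.28 ± 0.49 (limma adjusted p = 0.0247), at 6.17-fold, 3.29-fold, and 5.62-fold in HSC-3, KON, and Ca9-22. Under normexp, a gentler background correction, its mean was 1.80.

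Envoplakin (EVPL), which pairs with periplakin, was between 1.57 and 2.47 on all arrays, and its differences were −0.17 in HSC-3 cells, −0.17 in KON cells, and −0.03 in Ca9-22 cells (limma adjusted p = 0.590). The difference between PPL and EVPL was not tested. Cornifelin (CNFN) differed by −0.71, −0.19, and −0.05 in HSC-3, KON, and Ca9-22 (limma adjusted p = 0.324).

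IVL encodes involucrin, an early glutamine-rich scaffold, and its probe lies at chr1:152883972-152884031. It was detected on the 3 siCtrl arrays, at −2.94 in HSC-3 cells, −3.57 in KON cells, and −3.01 in Ca9-22 cells, and on 0 of the 3 siDLEU1-2 arrays, where the values were −3.88, −5.41, and −4.29. All 6 values are close to or under the lowest detected signals, so the difference has only a bound. For this, an undetected value was raised to the lowest detected signal of its array wherever it lay below it, and on means over the 3 lines IVL was at least 1.23-fold lower after siDLEU1-2. The bound was 1.57-fold in HSC-3 and 1.21-fold in Ca9-22, and there was none in KON. Such bounds depend on the background subtraction by the scanner software, and normexp gave differences smaller than the bounds printed for IVL, MAL, FLG, CRNN, PI3, SPRR2A, LCE1C, and LCE3E. limma called IVL lower on the values as measured (−1.36 ± 0.45, adjusted p = 0.0363). It did not with normexp (−0.26, limma adjusted p = 0.168) nor with undetected values raised (−0.29, limma adjusted p = 0.352). Since IVL passed the filter only through the siCtrl arrays, where it was higher, the call is no support for a fall.

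Across the lines, a loss of detection after siDLEU1-2 was seen for 1 of the 53 probes in HSC-3 (IVL; 2.54% of all probes), for 2 in KON (IVL and ALOXE3; 3.40% of all), and for 2 in Ca9-22 (IVL and a probe for LCE1C; 3.59% of all). A gain of detection was seen for 8 probes of 6 genes in HSC-3 (CRNN, SPRR2D, MAL, ASPRV1, FLG, and SPRR2A), against 2.67% of all probes. In KON it was seen for 2 probes (MAL and LCE3E), against 2.02% of all. In Ca9-22 it was seen for 4 probes of 3 genes (PI3, SPRR1A, and FLG), against 2.65% of all. For SPRR2D and SPRR1A, only the dimmer probe gained detection, while the brighter probe was detected on all 6 arrays.

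TGM1 encodes the membrane-bound transglutaminase that cross-links envelope proteins in keratinocytes (probe at chr14:24718451-24718510). It went from 1.14 to 2.86 in HSC-3, from −2.38 to −0.88 in KON, and from −1.61 to −0.23 in Ca9-22. Both HSC-3 arrays lay above all arrays of the other lines. TGM1 rose by 1.53 ± 0.18 (limma adjusted p = 0.0247), at 3.31-fold, 2.83-fold, and 2.59-fold in HSC-3, KON, and Ca9-22. TGM3 and TGM5, the soluble transglutaminases of later layers, were not detected on any array.

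Among the protease inhibitors, both cystatins changed, in opposite directions. CST6 encodes cystatin M/E, which restrains cathepsins in differentiating epidermis (probe at chr11:65780838-65780897). It went from 2.38 to 4.91 in HSC-3, from 2.54 to 4.42 in KON, and from −2.22 to −0.03 in Ca9-22, a rise of 2.20 ± 0.33 (limma adjusted p = 0.0231). In folds this was 5.80, 3.69, and 4.54 in HSC-3, KON, and Ca9-22. Under normexp, the log2 differences were 2.45, 1.84, and 1.42 in the same order.

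CSTA encodes cystatin A, an inhibitor of cysteine proteases that is itself cross-linked into the envelope (probe at chr3:122056416-122056475). It went from 4.68 to 3.09 in HSC-3, from 3.27 to 1.60 in KON, and from 3.88 to 2.64 in Ca9-22. Every siDLEU1-2 array lay below every siCtrl array, and CSTA fell (SD of the 3 differences 0.23; limma adjusted p = 0.0247), by 3.01-fold, 3.18-fold, and 2.37-fold in HSC-3, KON, and Ca9-22.

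The elastase inhibitors PI3 (elafin) and SLPI differed by line. PI3 went from −1.52 to 3.09 in HSC-3, a difference of 4.62, and from 0.30 to 0.06 in KON. In Ca9-22 it was undetected after siCtrl and at −1.79 after siDLEU1-2, 3.15-fold above the siCtrl floor. Its mean of 2.03 had an SD of 2.44 and was not called (limma adjusted p = 0.232), and PI3 was chosen for naming after its values were seen. SLPI went from 3.63 to 4.48 in HSC-3, from 4.01 to 3.07 in KON, and from 3.37 to 4.29 in Ca9-22 (limma adjusted p = 0.707).

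EMP1 encodes epithelial membrane protein 1, a tetraspan protein of squamous epithelium (probe at chr12:13369562-13369621). It went from 5.34 to 7.60 in HSC-3, from 4.92 to 6.06 in KON, and from 3.11 to 4.80 in Ca9-22. EMP1 rose by 1.69 ± 0.56 (limma adjusted p = 0.0324), at 4.79-fold in HSC-3 cells, 2.20-fold in KON cells, and 3.21-fold in Ca9-22 cells. The upstream stretch with 2 AP-1 matches printed above belongs to this gene.

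**Figure D3:**
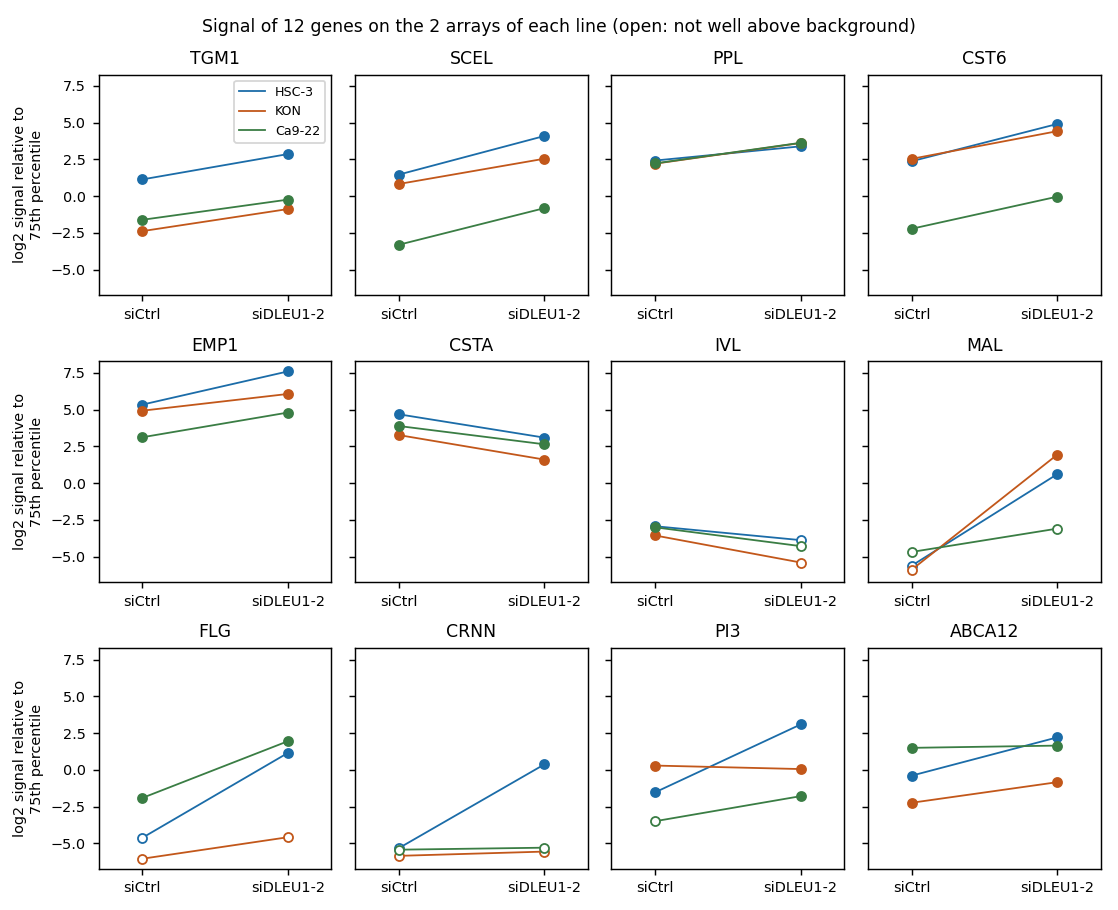
Log2 signal relative to the array's 75th percentile after siCtrl and after siDLEU1-2 for 12 genes, with 1 line joining the 2 arrays of each cell line and open points for signals not well above background. All 3 lines slope up for TGM1, SCEL, PPL, CST6, and EMP1 and down for CSTA; MAL, FLG, CRNN, PI3, and ABCA12 differ in slope between lines, and IVL has open points after siDLEU1-2.

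MAL encodes a proteolipid of membrane rafts that is abundant in mucosal squamous epithelium (probe at chr2:95719595-95719654). It was undetected on all 3 siCtrl arrays, at −5.63 in HSC-3 cells, −5.90 in KON cells, and −4.69 in Ca9-22 cells. After siDLEU1-2 it was detected at 0.60 in HSC-3 and 1.92 in KON, and was undetected in Ca9-22 at −3.10. Against the siCtrl floor, this was 18.1-fold higher in HSC-3 and 54.5-fold higher in KON. Since both Ca9-22 arrays were undetected, MAL was not tested in the main fit. Under normexp, the differences were 2.71 in HSC-3 cells, 4.05 in KON cells, and 0.34 in Ca9-22 cells.

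FLG encodes profilaggrin, whose product bundles keratins in the outer epidermis. Its 3 probes, between 152274859 and 152279523 on chromosome 1, all showed the same lines. The brightest was undetected after siCtrl in HSC-3 and at 1.15 after siDLEU1-2, and it went from −1.91 to 1.95 in Ca9-22, a difference of 3.86 with both arrays detected. In KON, no probe for FLG was detected after either siRNA. In HSC-3, the 3 probes were 26.6-fold, 6.64-fold, and 4.45-fold above the siCtrl floor. The other probes were 9.56-fold and 6.07-fold above the siCtrl floor in Ca9-22. Under normexp, the log2 differences of the 3 probes were 2.999, 1.34, and 1.09 in HSC-3, and 2.995, 1.62, and 1.40 in Ca9-22. FLG was not tested in the main fit, because KON had no detected signal.

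CRNN encodes cornulin, a marker of mucosal squamous differentiation from the same complex as FLG (probe at chr1:152381733-152381792). It was detected on 1 of the 6 arrays, at 0.37 in HSC-3 after siDLEU1-2, against −5.33 after siCtrl, and was 15.5-fold above the siCtrl floor there. Under normexp, the log2 difference was 2.34. The arrays of KON and Ca9-22 lay between −5.85 and −5.29. CRNN was chosen for naming after its values were seen, and with 1 detected array its difference has no replicate. HRNR, RPTN, and CRCT1, from the same stretch of chromosome 1, stayed undetected on that array.

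Among the small proline-rich genes, whose products act as cross-bridges in the envelope, 5 were tested with 6 probes (SPRR1A, SPRR2A, SPRR2D, SPRR2E, and SPRR2F), and limma called 0 of them. An unadjusted p below 0.05 was given by 1 of the 6 probes, for SPRR1A, against 29.5% of all probes tested. SPRR1A was at 1.70 and 1.59 in HSC-3, at 1.10 and 0.87 in KON, and at 1.45 and 1.29 in Ca9-22, after siCtrl and siDLEU1-2. Its other probe went the opposite way, with differences of 0.23, 0.96, and 0.50, and neither was called (limma adjusted p = 0.455 and 0.136).

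SPRR2A was undetected after siCtrl in HSC-3 and at −1.91 after siDLEU1-2, at least 3.17-fold higher. It differed by −0.60 in KON and by 0.60 in Ca9-22. SPRR2E showed the same signs, with 1.28 in HSC-3 cells, −0.58 in KON cells, and 0.74 in Ca9-22 cells, and SPRR2D had 0.27, −0.14, and 0.06. The dimmer SPRR2D probe, detected on 3 arrays and not tested, had 0.90, −0.94, and 0.73. SPRR2F differed by 0.0005 in HSC-3 cells, by 0.34 in KON cells, and by 0.41 in Ca9-22 cells. The probes for SPRR2E and SPRR2F match in 54 of their 60 bases, so each may also bind the other's transcript. Probes were compared with other probes only, so binding to the transcripts of other SPRR2 genes was not searched. SPRR3, a mucosal member, was detected in Ca9-22 only, at −2.34 after siCtrl and −1.01 after siDLEU1-2, and SPRR1B in HSC-3 only, at −2.32 and −2.70.

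Of the late cornified envelope genes, which reinforce the shell, LCE1C was at 3.17 and 3.45 in HSC-3, at 2.69 and 2.48 in KON, and at 2.71 and 2.83 in Ca9-22 (limma adjusted p = 0.833). This probe matches probes for LCE1A and LCE1D in up to 40 of 60 bases. The other LCE1C probe was detected on 1 array, at −0.34 in Ca9-22 after siCtrl, 7.71-fold above the siDLEU1-2 floor of that line. The 2 probes therefore disagree. LCE3E was detected on 1 array, at −2.24 in KON after siDLEU1-2, 3.05-fold above the siCtrl floor.

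ABCA12, the transporter that loads lipids into lamellar granules, went from −0.39 to 2.21 in HSC-3, from −2.24 to −0.84 in KON, and from 1.501 to 1.65 in Ca9-22. Its differences of 2.60, 1.40, and 0.15 averaged 1.39 ± 1.23 and were not called (limma adjusted p = 0.142). The lipoxygenase ALOXE3 was detected on 1 array, KON after siCtrl, at −3.34. The retroviral-like protease ASPRV1, which processes profilaggrin, differed by 0.51 in HSC-3, where siCtrl was undetected, by 0.99 in KON, and by −0.25 in Ca9-22 (limma adjusted p = 0.368).

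The secreted proteins dermokine (DMKN), suprabasin (SBSN), and keratinocyte differentiation-associated protein (KRTDAP) are neighbors on chromosome 19. DMKN was at 5.82 and 5.57 in HSC-3, at 5.57 and 5.20 in KON, and at 5.89 and 5.54 in Ca9-22. All 3 of its probes were lower in every line, by means of −0.32 ± 0.06, −0.37 ± 0.16, and −0.60 ± 0.15, and none was called (limma adjusted p = 0.191, 0.172, and 0.0716). The third was called under normexp, at −0.60. SBSN and KRTDAP were detected in Ca9-22 only, where SBSN was at −2.39 and −1.54 and KRTDAP at −1.41 and −2.03 after siCtrl and siDLEU1-2.

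Within single lines, each with 1 array per siRNA, the counts over 2-fold were as follows. In HSC-3, 13 of the 30 detected probes, for 11 genes, were over 2-fold higher, against 10.2% of all probes detected in that line, and 1 was lower, against 8.93%. In KON, 8 of 27 were higher, against 9.80%, and 2 were lower, against 9.20%. In Ca9-22, 10 of 30 probes for 8 genes were higher, against 9.61%, and 3 were lower, against 9.86%. Under normexp, several of these were no longer over 2-fold. They were SPRR2A and SPRR2E in HSC-3, TGM1, ABCA12, LCE3E, and IVL in KON, and TGM1, PI3, SPRR3, and IVL in Ca9-22. Undetected arrays enter some of these folds, and probes for the same gene are not independent, so the counts carry no test.

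**Figure D4:**
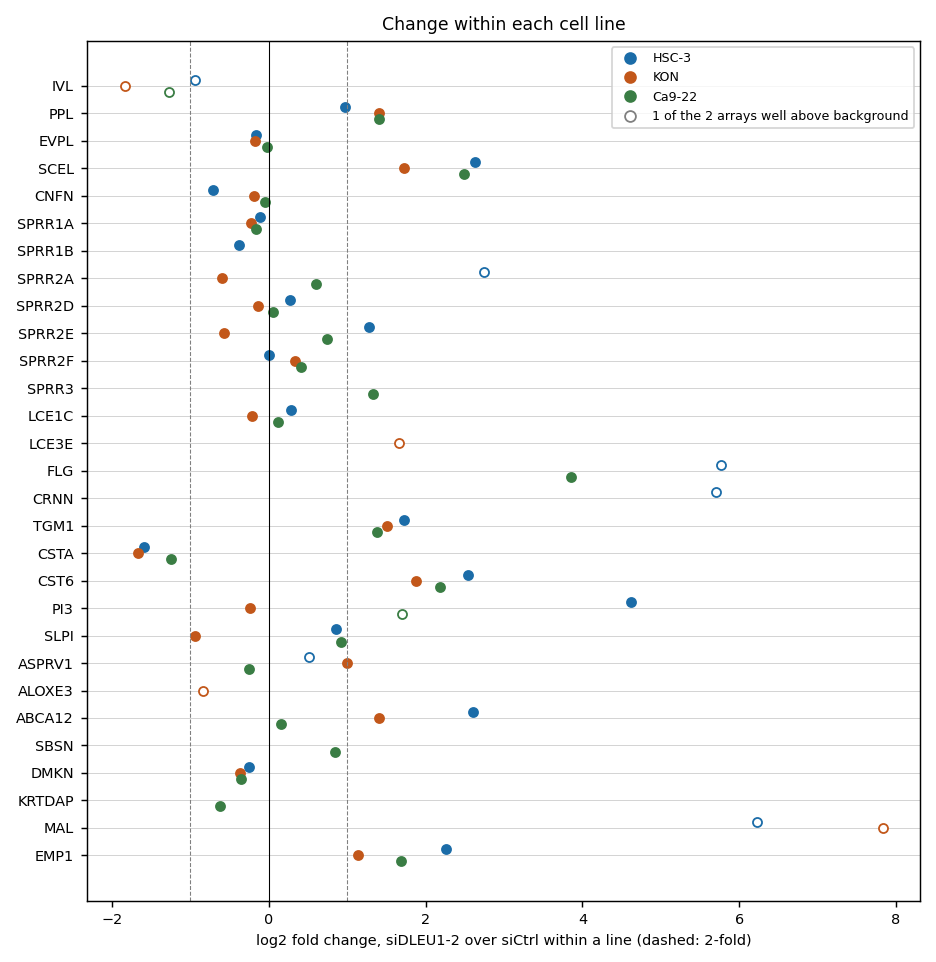
Log2 fold change within each line, siDLEU1-2 over siCtrl, for the 29 genes detected on at least 1 array. Each point is 1 line, drawn where at least 1 of its 2 arrays was well above background and open where only 1 was; dashed lines mark 2-fold. SCEL, TGM1, CST6, and EMP1 lie beyond the right line in all 3 cell lines and CSTA beyond the left, while SLPI, PI3, SPRR2A, and SPRR2E lie on both sides of 0.

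The lines also differed in their own levels of these genes. In the same limma fit, an F test over the 3 lines called 12 of the 23 probes, near the 53.8% of all probes tested that were called. The 2 arrays of a line differ in siRNA, so the spread here is the departure from an equal shift in all lines. TGM1 was highest in HSC-3, with a mean of 2.002 over its 2 arrays, against means of −1.63 for KON and −0.92 for Ca9-22 (limma adjusted p against HSC-3 = 0.00444 and 0.00473).

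SCEL and CST6 were lowest in Ca9-22. SCEL had means of 2.78 in HSC-3 cells, 1.69 in KON cells, and −2.06 in Ca9-22 cells, and CST6 had 3.64, 3.48, and −1.13. The difference of Ca9-22 from HSC-3 was −4.84 for SCEL and −4.77 for CST6 (limma adjusted p = 0.00464 and 0.00336), while CST6 in HSC-3 and KON differed by −0.16 (adjusted p = 0.581). EMP1 was also lowest in Ca9-22, at 3.96 against 6.47 in HSC-3 and 5.49 in KON.

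PPL was not called between lines, with means of 2.91, 2.91, and 2.93 in HSC-3, KON, and Ca9-22 (limma adjusted p = 0.994). CNFN was highest in Ca9-22, at 1.60 against −0.18 in HSC-3 and −0.99 in KON. SPRR2F was highest in HSC-3, at 1.41 against −0.72 in KON and −1.73 in Ca9-22. ASPRV1 was lowest in HSC-3, at −3.34 against −0.28 in KON and −0.97 in Ca9-22. Its HSC-3 array after siCtrl was undetected, so that mean is not exact. ABCA12 was lowest in KON, at −1.54 against 0.91 in HSC-3 and 1.58 in Ca9-22. CSTA, IVL, EVPL, and a probe for SPRR1A were the other probes called between lines, with KON lowest for CSTA and EVPL and Ca9-22 lowest for the dimmer probe of SPRR1A, where its siCtrl array was undetected. The brighter SPRR1A probe was lowest in KON, at 0.98 against 1.65 in HSC-3 and 1.37 in Ca9-22, and was not called by the F test (adjusted p = 0.0510). For IVL, the call rests on values that were undetected on the 3 siDLEU1-2 arrays, so no order of lines is given.

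Regulators and neighbors of the program were read from gene lists, for which the shares of all probes called, 3.98% higher and 4.52% lower, are again the background. Calls over all probes, those of the lists included, were 0 without the block, without the filter, and without HSC-3 or KON. Of 22 transcription factors of squamous cells, 21 were tested, and OVOL1 and PRDM1 rose while TP63 fell. OVOL1, a repressor that moves keratinocytes out of the cell cycle, rose by 1.69 ± 0.50 (limma adjusted p = 0.0305). PRDM1, known for a part in the last steps of cornification, rose by 1.84 ± 0.42 (adjusted p = 0.0251). TP63, which maintains basal keratinocytes, fell by 2.46 on the log2 scale (SD 0.18; adjusted p = 0.0227). GATA3 was over 2-fold higher in every line without being called (2.21 ± 1.08; adjusted p = 0.0501). GRHL3, a Grainyhead-like activator of barrier genes that was named after its values were seen, was higher by 0.66 in HSC-3 cells, 3.92 in KON cells, and 3.42 in Ca9-22 cells (adjusted p = 0.0801).

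Of 20 keratins, 13 were tested. KRT80, a keratin of differentiating epithelia, rose by 2.34 ± 1.12 (limma adjusted p = 0.0489), and KRT6A and KRT6C fell by 1.33 ± 0.13 and by 1.35 ± 0.15 (adjusted p = 0.0247 for both). KRT6A and KRT6C are near-identical genes, so these may not be separate changes. The medians over these lists were 0.30 for the transcription factors and 0.008 for the keratins.

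Among 20 barrier lipid genes, 11 were tested. FA2H, which hydroxylates the fatty acids of ceramides, rose by 3.77 ± 1.10 (limma adjusted p = 0.0257), and UGCG, the glucosylceramide synthase, rose by 1.85 ± 0.32 (adjusted p = 0.0247). SGPL1, the sphingosine-1-phosphate lyase, fell by 1.37 ± 0.38 (adjusted p = 0.0315). Of 22 desquamation proteases and inhibitors on the array, 12 were tested and 1, CTSL2 (cathepsin V), rose (1.36 ± 0.59; adjusted p = 0.0493). KLK5 and KLK10 were over 2-fold higher in every line on the measured values, but KLK5 was undetected on both KON arrays and KLK10 on both Ca9-22 arrays, so neither was tested.

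Desmosome genes went both ways. Of 13, 10 were tested, and PKP2 rose by 1.22 ± 0.24 (limma adjusted p = 0.0298) while DSG3, PKP1, and DSC3 fell by 2.12 ± 0.57, 1.49 ± 0.22, and 1.14 ± 0.17 (adjusted p = 0.0266, 0.0247, and 0.0292). Of 8 epithelial markers, all tested, 3 rose and TP63 fell. The simple-epithelium keratins KRT8 and KRT18 and the adhesion molecule CDH1 rose by 2.47 ± 1.12, 1.40 ± 0.19, and 2.92 ± 0.21 (adjusted p = 0.0452, 0.0247, and 0.0227), while KRT19 was not called (adjusted p = 0.268). Of 22 further genes of the epidermal differentiation complex on the array, 12 were undetected everywhere and 3 were tested, of which 0 were called. The medians of the lists were 0.13 for lipid genes, 0.85 for desquamation genes, and −0.26 for desmosome genes, against 0.0073 over all probes tested.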

How the data were processed

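HSC-3, KON, and Ca9-22 cells transfected with siDLEU1-2 or siCtrl gave 6 one-color arrays on 1 slide. The deposited files are Feature Extraction output (10.7 in the submitters' processing notes) with an intensity per spot, background-subtracted by the software and not normalized between arrays. The authors' series table holds the same intensity, within 0.497%, and GeneSpring was their analysis software.

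From these files, log2 intensity was centered on each array's 75th percentile, outlier spots were dropped, and spots of a probe were averaged. No spot was saturated. A probe was detected where at least 50% of its spots were well above background. The 19956 probes detected in every line, on 1 array or both, were fitted with limma 3.58.1 (R 4.3.3) with siRNA and cell line as terms and Benjamini-Hochberg adjustment. The fit was tested on simulated data. The number of arrays limits the precision, and p-values measure the spread between 3 lines. The SD between spots within an array was 0.06 to 0.07. The arrays of a pair share a cell line, and their deviations from the group means correlated at 0.828 (HSC-3), 0.813 (KON), and 0.822 (Ca9-22).

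The genes and lists were chosen with earlier results of these data known. Values on every array are given for genes called by limma, genes over 2-fold in the same direction in all 3 lines, and up to 6 genes of the highest mean signal. Other genes are given by counts, or are named after their values were seen (CRNN, PI3, ABCA12, the remaining SPRR, LCE, and secreted genes). From the lists, genes called or over 2-fold in all lines are named. Other list genes, such as GRHL3 and ZNF750, were named after their values were seen. The alternatives were other centering (quantiles, the median, or probes detected on all arrays), normexp with an offset of 50, the series table, other filters, raised dim values, other fold thresholds, a gene's probes averaged, the methods' t-test, a fit without the block, and fits without each line. All 45 symbols were found in the RefSeq gene table, LOR as LORICRIN. LCE1F, SPRR5, and LYZ were not used here.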

Additional observations from a re-analysis of the deposited data

Results flagged for a closer look

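SLPI, the secreted inhibitor of leukocyte proteases, differed by more than 1.5-fold in opposite directions between lines: siDLEU1-2 over siCtrl gave 0.85 (HSC-3), −0.95 (KON), and 0.92 (Ca9-22) on the log2 scale, with all 6 arrays detected. SPRR2A, a small proline-rich envelope protein, differed by −0.60 in KON and by 0.60 in Ca9-22, again in opposite directions, and under normexp by −0.38 and 0.34, which is under 1.5-fold in both lines. These values rest on 1 probe for SPRR2A, as its other probe was undetected throughout. With 1 array per line and siRNA, the difference between lines was not tested for either gene.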

How the results depend on the processing

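The 5 higher and 2 lower calls by limma were the same under quantile normalization, median centering, centering on probes detected on all arrays, and the authors' series table. normexp kept the 5 higher calls and CSTA, lost IVL, and added a DMKN probe. Lower calls were 1, CSTA, among probes detected on all 6 arrays and where dim values were raised to the detection floor. Both counts were 0 without a filter (50544 probes tested, 12 of 53 member probes with an unadjusted p below 0.05, against 13.5% of all), with a filter on the mean level (25272 tested, 14 of 36, against 24.0%), without the cell line as a replicate block (3 of 23, against 6.80%), with the methods' t-test (2 of 23, against 6.88%), and, in an alternative chosen after seeing the data, with probes detected on at least 1 array and dim values raised (27993 tested, 13 of 36, against 20.3%). With each line left out in turn, both counts ranged from 0 to 0, with 9 to 11 of 23 probes at an unadjusted p below 0.05, against 22.0% to 23.4% of all. Over the whole array, calls were 0 in all these fits, except without Ca9-22 (127 higher, 117 lower). Adjusted p-values over these alternatives ran from 0.0132 to 0.141 for CST6 and from 0.0188 to 0.153 for EMP1.

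The count over 2-fold higher in all lines was 3 under normexp, where TGM1 dropped out, 6 without a filter or with the filter on the mean level, and 5 with any line left out. The count over 2-fold lower in all lines was 2 when centered on probes detected on all arrays and ranged from 1 to 2 with a line left out. At a threshold of 1.5-fold it was 2, and at 3-fold it was 0, with 2 genes higher. The median over the 23 probes ranged from −0.0005 to 0.20 with a line left out. Median centering moved the median of all probes from 0.0073 to −0.065. Folds against the floor are not strict lower bounds and hold only under the main background subtraction. The sign of the median over the 23 probes turned without HSC-3, while TGM1, SCEL, PPL, CST6, EMP1, IVL, CSTA, MAL, FLG, PI3, and ABCA12 kept their direction under the alternatives run for them. Other genes were not recomputed one by one. Slide could not enter as a block, as all arrays shared 1. The cause of these changes was not tested.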
